A study of Mus musculus with 6 samples.

Results

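The CXC and CX3C chemokines described here are 9 genes, Cxcl1, Cxcl2, Cxcl3, Cxcl5, Cxcl9, Cxcl10, Cxcl12, Cxcl16 and Cx3cl1, taken by symbol from the 24421 genes of a read count table of 4T1 mouse breast carcinoma cells. All 9 were in the table, 8 of them had at least 1 read, and 6 were abundant enough to be tested between the groups. The cells (strain label BALB/cfC3H, line 4T1-tetL1(GLucAI)) were a stable transfected population in which doxycycline, through a constitutively expressed tetracycline-responsive transactivator, switches on a recoded mouse LINE-1 (L1) retrotransposon that carries a Gaussia luciferase readout of retrotransposition. Both groups carried this cassette: 3 libraries came from untreated cells, tagged as vehicle, and 3 from cells kept in 400 ng/mL doxycycline for 48 h. The doxycycline-responsive promoter works in both directions and also drives firefly luciferase. Cassette-free cells given doxycycline were not analysed here, so the drug, the L1 element and the luciferase it induces cannot be told apart. The cassette's own transcript was not analysed here either, so each direction below rests on the labels. The comparison asks how the chemokine transcripts of the tumor cells differ between doxycycline and untreated cultures.

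Library totals ran from 31653464 to 43631312 counted reads, at which 3 reads correspond to 0.0683 to 0.0944 CPM (reads of a gene per 1000000 library reads, scaled by the trimmed mean of M values, TMM). Of the 13084 genes tested with edgeR, 2.16% were called lower and 0.925% higher in doxycycline at an adjusted p under 0.05. The split of these calls, 70.0% lower, became 57.4% lower when GC content and length were corrected for. All 7 epithelial markers listed were expressed, with summed levels of 1810 to 1897 CPM in untreated and 1755 to 1986 CPM in doxycycline libraries. Of them Krt19, a simple-epithelium keratin, was called lower, at 63.5 ± 2.15 CPM (SD, n = 3) in untreated and 51.4 ± 4.22 CPM in doxycycline libraries (log2 fold change -0.31, adjusted p 0.00782, edgeR). The 11 leukocyte markers in the table summed to at most 1.92 CPM in any library, with Adgre1, Tyrobp, S100a9 and Nkg7 at 0 reads in all 6, and the 6 endothelial markers to at most 0.862 CPM, with Emcn at 0. The 7 fibroblast markers summed to 35.7 to 38.7 CPM in untreated and 28.0 to 29.6 CPM in doxycycline libraries. Nearly all of this was Pdgfra, a growth factor receptor gene, at 36.7 ± 1.37 CPM (SD, n = 3) in untreated and 27.8 ± 0.669 CPM in doxycycline libraries (adjusted p 0.000952, edgeR), while Lum and Thy1 were at 0. The part of the Krt19 and Pdgfra differences in the chemokine results was not tested.

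Chemokines are small secreted or membrane-tethered proteins that guide leukocytes through G protein-coupled receptors. Cxcl1, Cxcl2, Cxcl3 and Cxcl5 carry the Glu-Leu-Arg (ELR) motif ahead of their paired cysteines, act on the receptor Cxcr2, and draw neutrophils, a cell type that 4T1 tumors are known to mobilise in large numbers. Their genes are classical targets of NF-κB and of interleukin-17 signaling. Cxcl9 and Cxcl10 are induced by interferons and draw T cells and natural killer cells through Cxcr3. Cxcl12 is the ligand of Cxcr4 and of the scavenger Ackr3, and Cxcl16 (receptor Cxcr6) and Cx3cl1 (receptor Cx3cr1) are made as transmembrane proteins that the proteases Adam10 and Adam17 can release.

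The 4 ELR genes lie together on the forward strand of chromosome 5, at chr5:90759360-90761624 for Cxcl5, chr5:90786103-90789600 for Cxcl3, chr5:90891241-90893115 for Cxcl1 and chr5:90903871-90905938 for Cxcl2 (GRCm38, GENCODE annotation), a span of 146.6 kb. The interferon-driven pair lies farther along the same chromosome on the reverse strand, at chr5:92321347-92328079 for Cxcl9 and chr5:92346638-92348889 for Cxcl10. The other members are on other chromosomes, Cxcl12 at chr6:117168535-117181367, Cxcl16 at chr11:70453983-70459984 and Cx3cl1 at chr8:94772009-94782427. All 9 are annotated as protein coding.

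The promoters of the ELR and interferon-driven genes are shown for the letters their known regulators bind. RefSeq entries (GRCm38.p6) were matched for 7 of the 9 members, not for Cxcl5 or Cxcl16. Windows of 220 bases, from 250 to 31 bases before the annotated start, are printed 5′ to 3′ on the strand of the gene for the 3 ELR genes with an entry, Cxcl1 (chr5:90890995-90891214, forward), Cxcl2 (chr5:90903649-90903868, forward) and Cxcl3 (chr5:90785851-90786070, forward), and for Cxcl9 (chr5:92328110-92328329, reverse) and Cxcl10 (chr5:92348920-92349139, reverse). Capitals mark the longest run of letters shared by the 3 ELR promoters and the matches, on either strand, to an NF-κB-type core GGANNTNCC and an interferon regulatory factor (IRF) core TTCNNTTTC.
Cxcl1: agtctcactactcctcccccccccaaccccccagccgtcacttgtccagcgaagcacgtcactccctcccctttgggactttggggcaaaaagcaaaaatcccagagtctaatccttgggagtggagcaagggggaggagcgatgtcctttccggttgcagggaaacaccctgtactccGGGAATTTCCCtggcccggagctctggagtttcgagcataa
Cxcl2: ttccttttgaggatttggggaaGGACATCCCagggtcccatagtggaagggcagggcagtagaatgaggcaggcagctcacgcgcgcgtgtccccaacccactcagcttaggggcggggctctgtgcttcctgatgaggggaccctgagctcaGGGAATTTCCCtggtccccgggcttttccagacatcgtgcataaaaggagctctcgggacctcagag
Cxcl3: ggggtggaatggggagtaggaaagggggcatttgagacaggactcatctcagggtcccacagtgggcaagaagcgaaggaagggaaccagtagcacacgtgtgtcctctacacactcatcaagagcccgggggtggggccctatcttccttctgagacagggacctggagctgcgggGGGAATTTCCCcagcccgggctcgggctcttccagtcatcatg
Cxcl9: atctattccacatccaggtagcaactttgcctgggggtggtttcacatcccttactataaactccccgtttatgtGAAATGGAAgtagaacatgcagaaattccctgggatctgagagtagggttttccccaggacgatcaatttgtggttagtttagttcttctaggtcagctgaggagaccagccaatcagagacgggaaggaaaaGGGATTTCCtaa
Cxcl10: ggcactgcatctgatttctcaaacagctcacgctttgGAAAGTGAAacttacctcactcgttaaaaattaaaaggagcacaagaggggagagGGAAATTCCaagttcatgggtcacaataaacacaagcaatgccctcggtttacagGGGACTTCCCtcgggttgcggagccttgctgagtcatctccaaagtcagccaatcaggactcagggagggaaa
The longest run shared by the 3 ELR promoters was GGGAATTTCCC, which contains the NF-κB-type core. Its presence in these 3 is fixed by that choice. It stood 71 to 61 bases before the start of Cxcl1, 97 to 87 before that of Cxcl2 and 73 to 63 before that of Cxcl3. Of 32851 promoters, 14 (0.0426%) held this run on either strand in the 250 bases before the start, these 3 among them, and neither Cxcl9 nor Cxcl10 did.

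The looser core GGANNTNCC was in 12.2% of all promoters and in 5 of the 7 members with an entry, the 5 printed. In Cxcl10 it covered 103 to 94 and 158 to 150 bases before the start, and in Cxcl9 42 to 34 bases before. The IRF core TTCNNTTTC was in 7.13% of all promoters and in Cxcl9 (175 to 167 bases before the start) and Cxcl10 (213 to 205 bases before), and not in the 3 ELR promoters printed, which at that share is no mark of the class. The pattern TTCNNNGAA, the core of interferon-gamma activated sites, was in 7.02% of promoters and in none of the 7. The pattern letters were chosen after the promoters had been seen, and each match is a description of letters, not a binding site.

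In untreated cells the ELR class supplied most of the reads of the 9 members, 1159 ± 49.7 of 1353 ± 45.5 CPM (SD, n = 3). Per kilobase of the longest coding transcript, Cxcl5 stood highest at 527 ± 29.9 CPM per kb (SD, n = 3), followed by Cxcl1 at 344 ± 11.9 CPM per kb. These were the 87th and 140th highest levels of 12605 tested genes with a known length. Next came the tethered chemokines, Cxcl16 at 34.5 ± 1.53 and Cx3cl1 at 24.9 ± 0.182 CPM per kb, then Cxcl10 at 13.0 ± 1.10 and Cxcl3 at 1.52 ± 0.176 CPM per kb. The libraries of neighbours in this order did not overlap in untreated cells. Under doxycycline the mean of Cxcl5, 282 ± 35.9 CPM per kb, and that of Cxcl1, 248 ± 24.0 CPM per kb, came closer and their libraries overlapped. The order depends on the length used: with the mean transcript length of each gene, Cx3cl1 (85.0 CPM per kb) stood above Cxcl16 (49.6 CPM per kb) in untreated cells.

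Cxcl2 and Cxcl9 were close to the limit of detection and Cxcl12 was not detected. Cxcl2, a major neutrophil chemokine of stimulated macrophages, had 7, 4 and 8 reads in the untreated and 6, 4 and 0 reads in the doxycycline libraries. Cxcl9 had 4, 2 and 4 reads in the untreated and 6, 8 and 0 reads in the doxycycline libraries. Cxcl12 had 0 reads in all 6 libraries, so that a level of up to 0.0944 CPM remains possible in the shallowest of them. No difference was detectable for these 3 genes at this depth, and none of them passed the filter on low counts.

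Of the 6 members tested, 3 were called lower in doxycycline and 0 higher, against 2.16% of all tested genes called lower. The called genes were Cxcl5, Cxcl1 and Cx3cl1. The untreated and doxycycline libraries did not overlap for 5 of the 6, always with doxycycline lower, against 11.1% of all tested genes. The 6 fold changes were all below 0, as were 49.2% of those of all tested genes, and their median was -0.51 on the log2 scale against 0.002 over all tested genes. Cxcl5, Cxcl10 and Cx3cl1 had been picked for display in the study from these same libraries, so their choice was not independent of the values, whichever the direction. In bulk RNA, fewer expressing cells and less RNA per cell cannot be told apart.

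**Figure D1:**
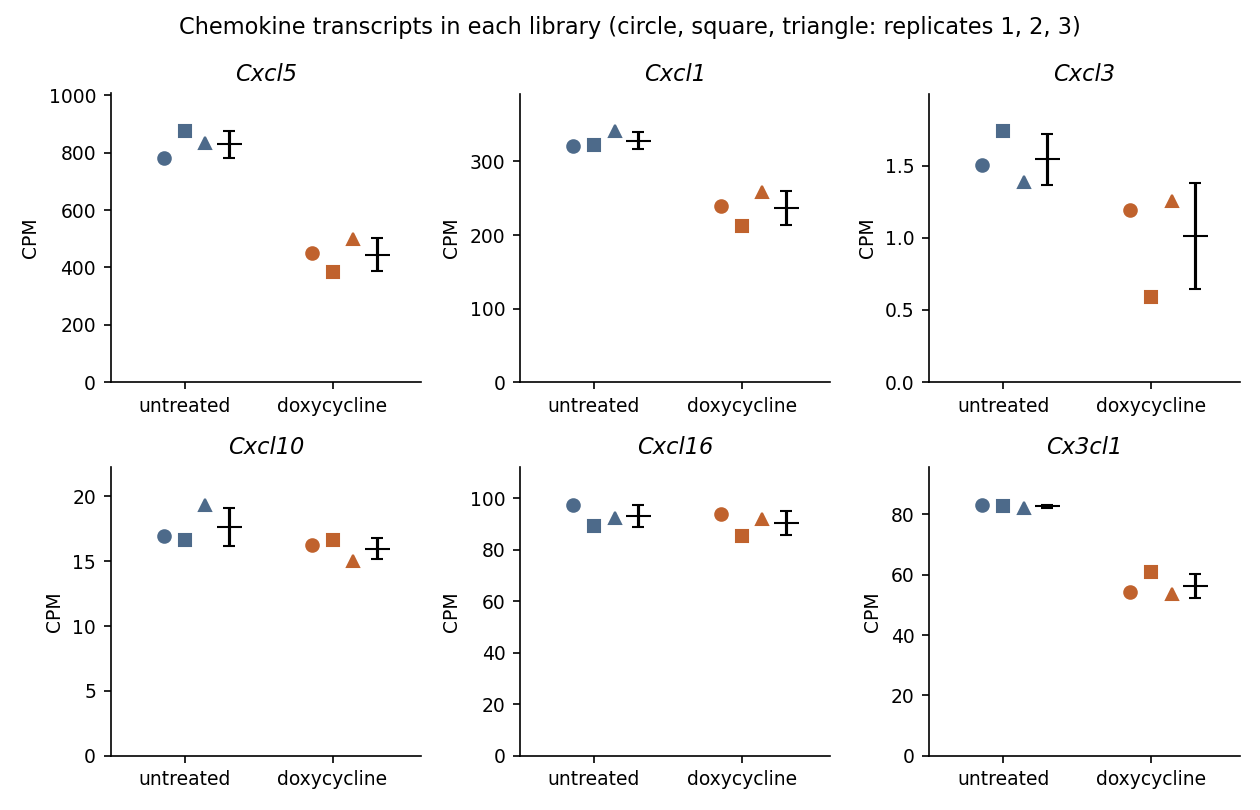
Level of each of the 6 tested chemokines in CPM, one panel per gene with an axis from 0, one point per library and the group mean with its SD, for untreated (n = 3) and doxycycline (n = 3) cells. The doxycycline libraries of Cxcl5, at 385 to 497 CPM, sit below the untreated ones at 781 to 875 CPM, while those of Cxcl16 overlap.

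Cxcl5, also called LIX in the mouse, had the largest called change of the members. Its level was 781, 875 and 833 CPM in the untreated libraries and 452, 385 and 497 CPM in the doxycycline libraries. The groups stood far apart, and the spread was wider under doxycycline, with replicate 2 the lowest. The mean of 829 ± 47.1 CPM (SD, n = 3) fell by 46.4% to 445 ± 56.5 CPM, a log2 fold change of -0.90 (SE 0.08, 95% interval -1.07 to -0.73, edgeR adjusted p 3.5e-05).

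Cxcl1, the mouse KC protein gene, was lower by a smaller step. Its level was 321, 322 and 341 CPM in the untreated libraries and 240, 212 and 258 CPM in the doxycycline libraries. All doxycycline libraries lay below all untreated ones, and replicate 2 was again the lowest of its group. The log2 fold change was -0.47 (SE 0.06, 95% interval -0.59 to -0.35, edgeR adjusted p 2.81e-05), a level that fell by 27.9%.

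Cxcl3, the least abundant member tested, had 66, 58 and 52 reads in the untreated and 38, 24 and 48 reads in the doxycycline libraries. That is 1.39 to 1.74 CPM against 1.20, 0.588 and 1.25 CPM, with no overlap between the groups and doxycycline replicate 2 far below the other two. The log2 fold change of -0.62 lay between those of Cxcl5 and Cxcl1, but its interval reached from -1.25 to 0.02 and the edgeR adjusted p was 0.326. Without doxycycline replicate 2 the value was -0.33. Cxcl2 and Cxcl3 share 61 of their 50-base stretches, 3.37% of those of Cxcl2 and 6.31% of those of Cxcl3, so their few reads are the least certain of the class, whereas Cxcl1 shares none with any other annotated gene.

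Cxcl10, the interferon-driven member with enough reads to test, changed little. Its level was 16.9, 16.67 and 19.4 CPM in the untreated and 16.2, 16.65 and 15.05 CPM in the doxycycline libraries. The groups missed an overlap by the narrowest margin, with untreated replicate 2 at 16.67 CPM and doxycycline replicate 2 at 16.65 CPM. The log2 fold change was -0.14 (SE 0.09, 95% interval -0.33 to 0.04, edgeR adjusted p 0.457), an interval that excludes the change measured for Cxcl5 and for Cxcl1 but not a small decrease, although the difference between the genes was not itself tested. Art3, which overlaps Cxcl10 on the opposite strand, had 1 to 17 reads per library against 516 to 744 for Cxcl10.

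Among the tethered chemokines, Cx3cl1 (fractalkine) was lower and Cxcl16 was not called. Cx3cl1 stood at 83.2, 82.7 and 82.0 CPM in the untreated libraries and at 54.2, 60.9 and 53.7 CPM in the doxycycline libraries. The untreated libraries were nearly identical, and doxycycline replicate 2, the lowest of its group for both abundant ELR genes, was here the highest. The log2 fold change was -0.55 (SE 0.06, 95% interval -0.67 to -0.43, edgeR adjusted p 4.08e-06), a level that fell by 31.8%.

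Cxcl16, a scavenger receptor as well as a chemokine, stood at 97.5, 89.3 and 92.5 CPM in the untreated and at 94.0, 85.2 and 92.1 CPM in the doxycycline libraries. The groups overlapped, and the log2 fold change was -0.04 (SE 0.05, 95% interval -0.16 to 0.07, edgeR adjusted p 0.75). Zmynd15, on the opposite strand, overlaps Cxcl16 and shares 20.0% of its 50-base stretches. The level of Zmynd15 was 3.21 ± 0.311 CPM (SD, n = 3) in untreated and 3.41 ± 0.709 CPM in doxycycline libraries. With the strand setting of the counting not given, this level cannot show how reads of the shared stretches were counted.

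**Figure D2:**
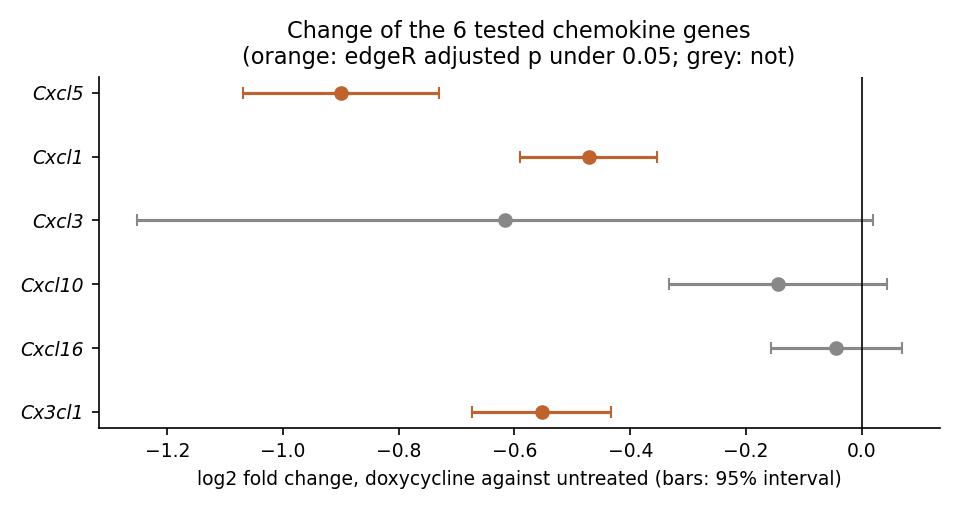
Log2 fold change of doxycycline against untreated cells for the 6 tested chemokines, with bars for the 95% interval of the edgeR fit. The intervals of Cxcl5, Cx3cl1 and Cxcl1 lie below 0, and those of Cxcl3, Cxcl10 and Cxcl16 include 0.

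Set against each other within a library, where scaling cancels, the summed neutrophil-attracting transcripts, nearly all Cxcl5 and Cxcl1, stood lower relative to Cxcl10 in all 3 doxycycline libraries than in any untreated one. For Cxcl3 alone the ratio to Cxcl10 overlapped, with 48 reads against 576 in doxycycline replicate 3 and 52 against 725 in untreated replicate 3. The summed level of the 4 ELR genes was 1159 ± 49.7 CPM (SD, n = 3) in untreated and 682 ± 79.7 CPM in doxycycline cells. Its log2 ratio to Cxcl10 was 6.03, 6.17 and 5.92 in the untreated and 5.42, 5.17 and 5.65 in the doxycycline libraries. The mean ratio was 65.9 ± 5.65 ELR reads per Cxcl10 read in untreated and 43.0 ± 7.18 in doxycycline libraries. The means of the log2 ratios differed by -0.63, doxycycline minus untreated.

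The ratios are a description with no test, and the difference was larger for Cxcl5 than for Cxcl1. The log2 ratio of Cxcl5 to Cxcl10 was 5.56 ± 0.15 in untreated and 4.79 ± 0.26 in doxycycline libraries, and that of Cxcl1 to Cxcl10 was 4.22 ± 0.07 and 3.89 ± 0.21. The Cxcl1 ratios also did not overlap, with 4.14 the lowest untreated and 4.10 the highest doxycycline value. Within the ELR class the balance moved as well: the reads of Cxcl5 per read of Cxcl1 were 2.43, 2.72 and 2.44 in the untreated and 1.89, 1.81 and 1.93 in the doxycycline libraries.

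**Figure D3:**
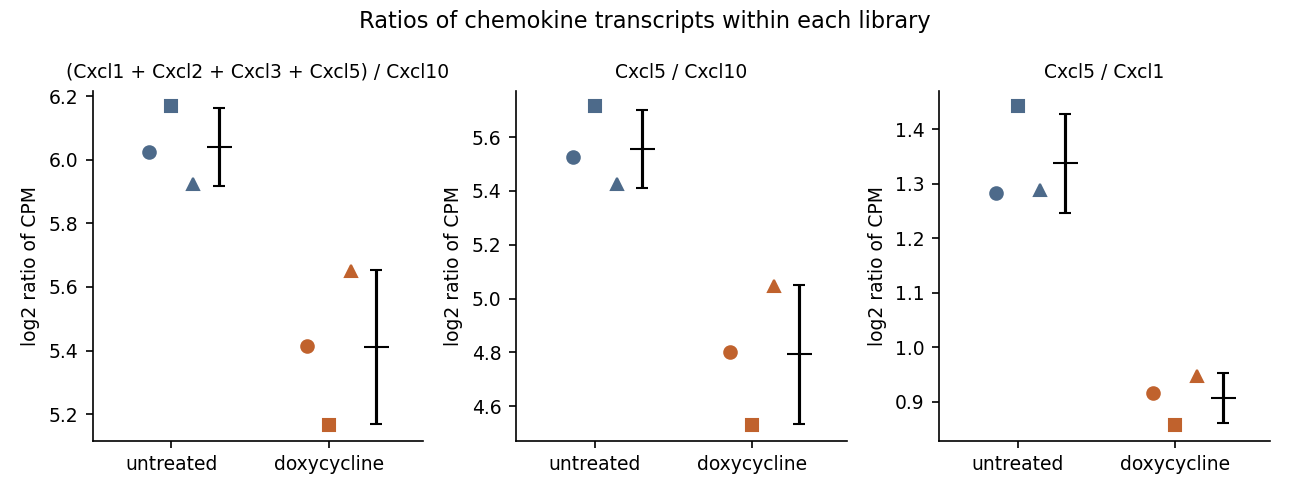
Log2 ratios of chemokine levels within each library, one point per library with the group mean and SD, for untreated (n = 3) and doxycycline (n = 3) cells. The doxycycline points sit below the untreated points in each ratio drawn, and the log2 ratio of the summed ELR genes to Cxcl10 goes from 6.04 ± 0.12 to 5.41 ± 0.24.

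The makeup of the chemokine reads differed between the groups as well. The 9 members together stood at 1353 ± 45.5 CPM in untreated and 845 ± 78.8 CPM in doxycycline cells. Cxcl5 made up 61.3 ± 1.58% of their reads in untreated and 52.5 ± 1.83% in doxycycline libraries, while the share of Cxcl1 went from 24.3 ± 0.918% to 28.0 ± 0.107% although its level was lower. The share of Cxcl16, whose level was not called, went from 6.90 ± 0.543% to 10.7 ± 0.612%, and that of Cxcl10 from 1.31 ± 0.106% to 1.91 ± 0.274%. Cx3cl1, with 6.11 ± 0.244% and 6.73 ± 1.13%, overlapped between the groups.

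The other CXC ligands were scarce. Of 7 listed, 2 were tested and 0 called: Ppbp, a neutrophil chemokine of platelets, at 1.90 CPM in untreated and 1.46 CPM in doxycycline cells, and Cxcl11, a further Cxcr3 ligand, at 0.748 and 0.488 CPM. Cxcl13 and Cxcl14 had 0 reads in all 6 libraries.

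Of the 9 receptors listed, 5 were tested, 1 was called lower and 0 higher (against 2.16% and 0.925% of all tested genes), with a median log2 fold change of -0.15. The called gene was Ackr3, the scavenging receptor of Cxcl12, at 66.1 ± 2.72 CPM (SD, n = 3) in untreated and 55.9 ± 2.31 CPM in doxycycline cells (log2 fold change -0.24, edgeR adjusted p 0.0213). This call was lost without untreated replicate 2 (adjusted p 0.109), untreated replicate 3 (0.168) or doxycycline replicate 3 (0.136). The receptors that leukocytes use for these ligands are named for that role. Cxcr2 had 0 to 4 reads per library, Cxcr1 and Cxcr4 had 0 in all 6, and Cxcr3 stood at 4.01 CPM in untreated and 3.64 CPM in doxycycline cells. Cxcr6 stood at 1.13 and 1.39 CPM and Cx3cr1 at 3.94 and 4.33 CPM, none of them called.

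Among 24 genes of NF-κB and interleukin-17 control, all tested, 5 were called lower and 0 higher (against 2.16% of all tested genes called lower), with 15 fold changes below 0 and a median of -0.06 on the log2 scale. Il17rd, an interleukin-17 receptor family member that also restrains growth factor signaling, had the largest difference, 3.68 ± 0.437 CPM (SD, n = 3) in untreated and 1.71 ± 0.122 CPM in doxycycline cells (log2 fold change -1.10, edgeR adjusted p 0.00167). Nfkbia, which encodes the feedback inhibitor IκBα and is itself an NF-κB target, went from 60.5 ± 1.26 to 48.0 ± 3.99 CPM (-0.33, adjusted p 0.00364).

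The other 3 called genes are a cofactor, a transcription factor and a receptor. Nfkbiz, whose product IκBζ assists NF-κB at secondary response genes, was at 88.8 ± 3.43 and 74.4 ± 5.17 CPM (log2 fold change -0.25, edgeR adjusted p 0.0135). Cebpb, a transcription factor of acute-phase and interleukin-17 target genes, was at 55.7 ± 2.79 and 47.5 ± 2.36 CPM (-0.23, adjusted p 0.04). Il1r1, the interleukin-1 receptor, was at 27.7 ± 2.28 and 22.6 ± 1.30 CPM (-0.29, adjusted p 0.0465). Each of these 3 calls was lost when any 1 of the untreated replicates was left out, with adjusted p values of 0.0535, 0.0544 and 0.149 for Nfkbiz, 0.231, 0.139 and 0.0724 for Cebpb, and 0.176, 0.236 and 0.0564 for Il1r1. Cebpb was also lost without doxycycline replicate 3 (0.198) and with GC content and length corrected (0.0776), and Il1r1 without doxycycline replicate 1 (0.0811) or 3 (0.0649) and with limma voom (0.059). Of genes named for their role, Rela, the main activating NF-κB subunit, differed by -0.03 (adjusted p 0.825) and Tnfaip3, a further feedback inhibitor, by -0.17 (adjusted p 0.0547), and neither was called. The remaining subunits were not called either, with Relb (0.22), Rel (0.16) and Nfkb2 (0.13) above 0 and Nfkb1 (-0.08) below.

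Of the 6 genes that set the stability of chemokine mRNAs, 2 were called lower and 0 higher (against 2.16% and 0.925% of all tested genes), with a median of -0.03. Zfp36l1, which binds AU-rich elements and promotes decay, was at 98.7 ± 3.47 and 78.7 ± 4.84 CPM (log2 fold change -0.33, edgeR adjusted p 0.00102). Zc3h12a, the ribonuclease Regnase-1 that degrades inflammatory mRNAs, was at 44.5 ± 2.31 and 35.8 ± 4.05 CPM (-0.31, adjusted p 0.0217), a call lost in all but 1 of the 6 fits that left out a library (adjusted p 0.0608, 0.144 and 0.087 without untreated replicates 1, 2 and 3, and 0.0641 and 0.0907 without doxycycline replicates 1 and 3). The doxycycline libraries lay above the untreated ones, without a call, for Zfp36, a further decay factor (0.23, adjusted p 0.116), and Arid5a, an mRNA stabiliser (0.17, adjusted p 0.243), both named after their values were seen.

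Interferon control genes, the counterpart for Cxcl9 and Cxcl10, showed 1 gene called lower and 0 higher among 17 tested of 19 listed, with a median of -0.02, against 2.16% and 0.925% of all tested genes called lower and higher. The called gene was Jak2, a kinase of interferon-gamma and many cytokine receptors, at 166 ± 1.80 and 135 ± 7.26 CPM (log2 fold change -0.30, edgeR adjusted p 0.000682). Ifng had 0 reads in all 6 libraries and Ifnb1 had 0 to 4 reads per library. Of genes named for their role in transcribing Cxcl10, Irf1 differed by -0.21 (adjusted p 0.121) and Irf7 by 0.34 (adjusted p 0.403), and neither was called.

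Of 8 genes listed for the shedding and trimming of chemokines or the control of these steps, 6 were tested. Of these, 1 was called lower and 0 higher (against 2.16% and 0.925% of all tested genes), with a median of 0.02. Mmp9, a gelatinase that clips the ends of several ELR chemokines, went from 78.1 ± 3.07 to 50.0 ± 3.73 CPM (log2 fold change -0.64, edgeR adjusted p 1.97e-06). The sheddases of Cxcl16 and Cx3cl1 were abundant and not called, Adam10 at 167 ± 5.92 and 162 ± 9.30 CPM and Adam17 at 133 ± 3.16 and 130 ± 0.320 CPM. Across the 6 lists, 10 of 60 tested genes were called lower and 0 higher, against 2.16% and 0.925% of all tested genes, and the 60 fold changes lay on both sides of 0, 37 below and 23 above.

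**Figure D4:**
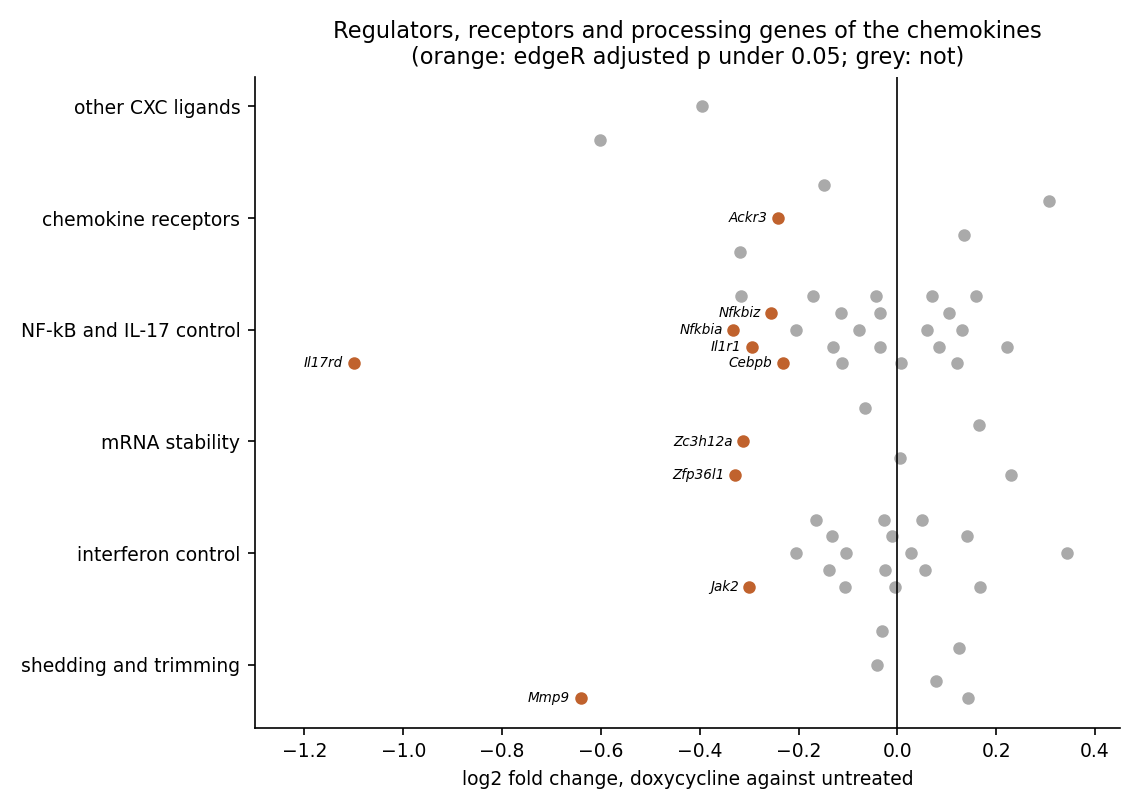
Log2 fold change of doxycycline against untreated cells for the tested genes of the 6 lists, one point per gene, with called genes in orange and named, and the height within a list spread for legibility. All 10 called genes lie to the left of 0, Il17rd farthest at -1.10, while the remaining genes lie on both sides.

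The genes whose course over the 6 libraries was most like that of a member were found among 9878 genes with a mean of at least 5 CPM, by the root mean square difference of their centred log2 levels. For Cxcl5 they were Txnip (0.131), Nid1 (0.134) and Id2 (0.135), for Cxcl1 they were Tslp (0.052), Casp12 (0.0551) and Nedd9 (0.0579), and for Cx3cl1 they were C3 (0.0384), Slpi (0.0396) and Hpse (0.0487). The log2 fold changes of these 9 neighbours ran from -0.91 for Nid1 to -0.42 for Nedd9. That they were lower in doxycycline follows from how they were chosen and is no separate result. The neighbours of Cxcl10 were Tlr3 (0.0306), Add3 (0.0339) and Cryz (0.0347), with log2 fold changes from -0.17 to -0.12. A closer match is easier for a member that varies less, so these distances are not compared between members.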

How the data were processed

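Total RNA was depleted of ribosomal RNA and sequenced after a kit that keeps strand (dUTP). Per the labels and the submitters' processing notes, reads were demultiplexed with bcl2fastq 2.20, aligned to GRCm38 (mm10) with STAR and counted per gene with featureCounts of Subread 1.6.2. The strand and multiple-mapping settings of the counting are not given in the sources used here. The authors deposited raw read counts per gene, 1 column per library, with no normalization. No column was left out.

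Groups were taken from the sample labels, which give no batch or date. The labels say only replicate 1 to 3, and the study calls the libraries biological triplicates without saying whether the cultures were set up separately, so the p-values measure the spread between these 6 libraries. No 2 libraries agreed within sampling noise (chi-square per degree of freedom 6.14 to 22.1 within groups). The largest values, 22.1 and 14.5, both involved doxycycline replicate 2, against 6.85 between doxycycline replicates 1 and 3.

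Counts were tested with edgeR 4.0.16 in R 4.3.3 (filterByExpr with its minimum of 10 reads, TMM scaling, robust quasi-likelihood test, Benjamini-Hochberg adjustment over all 13084 genes, threshold 0.05), after the code had been tested on simulated counts. DESeq2 1.42.0, limma 3.58.1 voom, other scalings and filters, a replicate block, a GC content and length correction (96.3% of tested genes had values) and leaving out each library were the alternatives. Levels are CPM on TMM-scaled totals, and per kilobase of the longest coding GENCODE transcript, an annotation that need not be the one counted on. The count-based limits at 3 reads cover counting error only. Gene and transcript positions came from GENCODE (GRCm38) and promoters from RefSeq (GRCm38.p6).

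The members, the gene lists and the tests were chosen with earlier results of these data known. Named genes were all members, each gene of the 6 pathway lists past the threshold, otherwise up to 4 of the most abundant of a list, and the 3 nearest genes for called members and Cxcl10; genes named for their role fall outside this rule and were chosen after their values were seen.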

Additional observations from a re-analysis of the deposited data

How the results depend on the processing

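The calls of Cxcl5, Cxcl1 and Cx3cl1 held in all 15 alternatives, with log2 fold changes of -0.99 to -0.81, -0.54 to -0.40 and -0.62 to -0.52 and adjusted p values of at most 0.0107, 0.00135 and 0.000233. Members called lower stayed at 3 and members called higher at 0 in each. Cxcl10 (adjusted p 0.348 to 0.852), Cxcl16 (0.545 to 0.987) and Cxcl3 (0.235 to 0.629) were called in none. Over all genes, 283 were called lower and 121 higher. Without a filter on low counts the numbers were 439 and 210, and with the GC content and length correction 509 and 378. With 1 library left out they were 116 to 487 and 44 to 269, the highest of each without doxycycline replicate 2. The cause was not tested. The count of listed genes called lower, 10, ranged from 5 to 12 with 1 library left out. The count called higher was 1 without a filter (Irf7, adjusted p 0.0332) and 0 to 1 with 1 library left out (Nfkb2, log2 fold change 0.20, adjusted p 0.0259 without doxycycline replicate 1). With 1 library left out, the log2 difference of the ELR to Cxcl10 ratio ranged from -0.75 to -0.51 and that of Cxcl5 to Cxcl10 from -0.89 to -0.63. Same-numbered libraries did not deviate together (correlations of -0.0399 to 0.0176), and 1 of 6 correlated best with its own number. No pairing by number was thus seen, which cannot show whether same-numbered cultures were handled together. With the replicate block, 300 genes were called lower and 118 higher, Cxcl5 stood at -0.91, Cxcl1 at -0.48 and Cx3cl1 at -0.56, and no member's call changed. At this depth Cxcl2, Cxcl9 and Cxcl12 could not be compared. With the longest transcript of any type in place of the longest coding one, an alternative chosen after seeing the data, the level of Cxcl1 in untreated cells was 175 CPM per kb.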
